A study of Mus musculus with 16 samples.

Results

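Long noncoding RNAs are transcripts that carry no long reading frame and that act, where a function is known, as scaffolds in the nucleus, as hosts of small RNAs released from their introns or exons, or through the act of transcription beside a coding gene. In macrophages they are best known from the inflammatory response, where several are made next to cytokine and enzyme genes. The 233 genes described here were chosen from 54532 gene rows in the deposited count table, of which 9165 carried the biotype lincRNA, antisense, lncRNA or processed_transcript. A row was taken where its mean CPM (its raw count relative to the library's column sum) over all 16 libraries was at least 2. The values that chose them were therefore their mean levels, which are given as a description with no test.

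Macrophages were grown with CSF-1 from the tibial marrow of C57BL/6 wild-type animals aged 2 to 3 months and passaged once, and their poly(A)-selected RNA was sequenced as read pairs. In every group CSF-1 was given first at 12 ng/ml for 24 h and then at 120 ng/ml for 48 h, with serum at 15%. There were 4 groups of 4 libraries. In fibronectin_antiITGAV the dishes carried fibronectin (10 µg/ml), an extracellular matrix protein that is a ligand of integrins, and the cells were kept for 24 h with an antibody (10 µg/ml) that neutralizes ITGAV, the αV integrin subunit; fibronectin_IgG had the same coating with an IgG antibody (10 µg/ml). In uncoated_antiITGAV and uncoated_IgG the cells were on normal culture dishes with either antibody. The labels do not state whether the 4 replicates of a group are separate cultures or mice, so a p-value here measures only the spread between libraries, which could be technical.

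The totals ran from 27995035 to 43413650 counts, so 3 counts, the limit that a count of 0 allows, stood for 0.0691 to 0.107 CPM (counting error only). The 9 macrophage markers had a median of 353 CPM with Lyz2 highest, the mast cell and basophil markers a median of 1.42 CPM, and the fibroblast markers a median of 0.285 CPM with Lum at 0. The 8 neutrophil markers summed to 207 to 350 CPM in fibronectin_antiITGAV, 321 to 410 in fibronectin_IgG, 302 to 352 in uncoated_antiITGAV and 418 to 446 in uncoated_IgG. The 5 mast cell and basophil markers summed to 8.66 to 11.3, 13.6 to 17, 17.8 to 24.2 and 25.0 to 31.7 CPM in the same 4 groups, and the 6 fibroblast markers to 4.83 to 7.97, 7.39 to 8.31, 10.4 to 12.3 and 12.1 to 14.9 CPM. The 4 B lymphocyte markers summed to 2.56 to 4.00, 2.34 to 3.28, 4.47 to 6.16 and 3.48 to 5.95 CPM. Under the same antibody these sums were lower on fibronectin than on uncoated dishes, apart from an overlap of the neutrophil sums under anti-ITGAV. The 3 endothelial markers summed to 7.50 to 9.36, 8.58 to 9.83, 5.31 to 9.18 and 5.60 to 6.93 CPM, higher on fibronectin under IgG and overlapping under anti-ITGAV. The T and NK lymphocyte markers summed to at most 0.554 CPM in any library, and the groups overlapped. The part of these cells in the coating differences below was not tested, and in these bulk samples fewer cells of a type and less RNA per cell cannot be told apart. The library fibronectin_antiITGAV 3 stood apart, with 3.67% of its counts from mitochondrial genes against 1.30 to 1.60% in the other 15.

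Macrophages on these dishes expressed few long noncoding genes, and most of those at low levels. Of the 9165 rows, 4946 had no count in any library and 2.54% reached the threshold, against 47.0% of protein-coding rows. The 233 were 108 lincRNA, 65 processed_transcript and 60 antisense rows. Their median mean level was 3.78 CPM, against 25.8 CPM for the protein-coding genes tested, and 145 of the members lay under 5 CPM. Of protein-coding rows 10365 reached 2 CPM and 12343 were tested, so these medians rest on unlike cuts. The 10 most abundant held 56.3% of all counts in the members, and Malat1 alone 20.4%. Just inside the threshold were Bach2os (2.01 CPM), 1700096K18Rik (2.01 CPM) and 4933421O10Rik (2.00 CPM), and just outside it Gm15832 (1.99 CPM), Epb41l4aos (1.97 CPM) and A930037H05Rik (1.96 CPM). All 233 passed the filter on low counts used for the tests. On 1 coating alone, 23 members had a mean under 2 CPM and so reached the threshold only through the other coating, where they had to be higher; 6 of them are among the calls below (Gm13710, Gm14636, Junos, Snhg4, 4732487G21Rik and 4930481A15Rik).

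**Figure D1:**
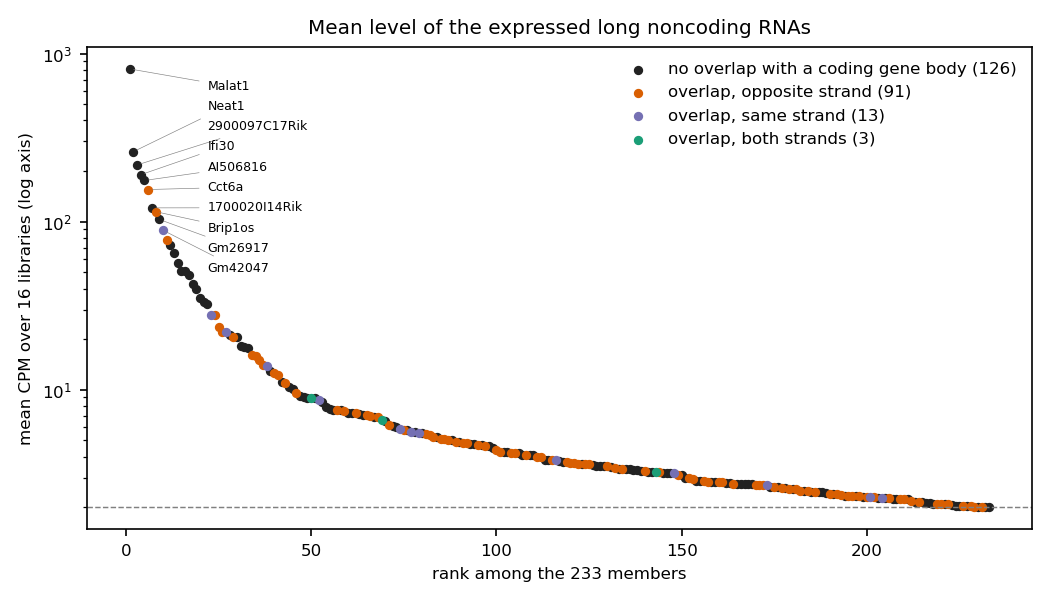
Mean CPM over the 16 libraries (log axis) of the 233 expressed long noncoding RNAs, by rank and coloured by overlap with a protein-coding gene body. Malat1 stood at 810 CPM, 9 members reached 100 CPM and the curve flattened towards the threshold of 2 CPM (dashed line).

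Malat1 and Neat1, known as nuclear RNAs, had the highest mean levels. Malat1 (chromosome 19, 5795690 to 5802672, minus strand, GRCm38 as in all positions here), a nuclear speckle RNA, averaged 810 CPM. Neat1, which builds paraspeckles and lies on the same chromosome (5824708 to 5845478, minus strand), averaged 261 CPM. They were followed by 2900097C17Rik (217 CPM), the mouse gene of the RNA called Norad, which binds Pumilio proteins, and by Ifi30, AI506816, Cct6a, 1700020I14Rik, Brip1os, Gm26917 and Gm42047 (190 to 88.9 CPM). 1700020I14Rik is the gene of the RNA called Cyrano, known for pairing with a microRNA.

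Among these, Ifi30, a lysosomal thiol reductase that antigen-presenting cells use, and Cct6a, a subunit of the chaperonin that folds actin and tubulin, are coding genes in RefSeq. RefSeq listed 176 of the 233 symbols, 154 as lncRNA, 19 as protein-coding, 2 as transcribed pseudogenes and 1 as a pseudogene. The biotype in the table thus put some coding genes among the long noncoding rows. Per length the order changed: Ifi30 was highest at 191 FPKM (the count scaled by gene length and library total), followed by Malat1 at 114 FPKM and by Gm10076, a row of 384 bases of transcript, at 45.6 FPKM.

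Overlap with coding genes limits how these rows can be read. The bodies of 107 members (45.9%) overlapped that of a protein-coding gene, 91 on the opposite strand, 13 on the same strand and 3 on both. The second cDNA strand was made with dTTP, per the labels' protocols, and so was not marked; no source used here gives the strand setting of the counting, and reads of a member and of a gene on the other strand cannot be told apart. Exons of 85 members shared bases with an exon of a coding gene, over a median of 10.6% of the member's exonic length and over more than 50% in 4. The share overlapping was 55 of 60 antisense rows, 32 of 65 processed_transcript rows and 20 of 108 lincRNA rows. A further 28 lay within 1000 bases of a coding gene without touching it, and 56 started within 1000 bases of the start of a coding gene on the opposite strand.

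The share of a library's counts that fell in the members overlapped between the groups. It was 0.416 ± 0.0428% (SD, n = 4) in fibronectin_antiITGAV, 0.400 ± 0.0588% in fibronectin_IgG, 0.380 ± 0.0437% in uncoated_antiITGAV and 0.393 ± 0.0215% in uncoated_IgG. Single libraries ran from 0.329% in fibronectin_IgG 2 to 0.471% in fibronectin_antiITGAV 3, and no test was made.

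The antibody against αV changed the level of no member past the threshold on either coating (edgeR's quasi-likelihood test, Benjamini-Hochberg adjusted p over all 15469 genes tested, threshold 0.05). On fibronectin 18 of 233 members had an unadjusted p under 0.05, beside 720 of all 15469 genes. The smallest adjusted p of a member was 0.721, shared by Ifi30 and Gm10076. On uncoated dishes 8 members had an unadjusted p under 0.05, beside 470 of all genes, and the smallest adjusted p of a member was 0.495, for Gm10076. The background was equally small: 0.0129% of all genes tested were called on fibronectin and 0.0129% on uncoated dishes. DESeq2 called no member on fibronectin and 1 on uncoated dishes, and voom with sample quality weights likewise. The gene was Gm10076 with both. Of all genes, DESeq2 called 0.23% on uncoated dishes and voom 0.705%. The median log2 fold change of the members for anti-ITGAV over IgG was 0.09 on fibronectin and -0.04 on uncoated dishes, beside medians of 0.00 and 0.01 over all genes tested. The median on fibronectin was 0.02 without fibronectin_antiITGAV 3, 0.03 with an offset for GC content and -0.04 with voom and sample quality weights, so its sign depended on the setting.

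Gm10076 (chromosome 14, 105681828 to 105682211, plus strand) is a pseudogene in RefSeq, and its transcript is 99.5% identical to that of Rpl41, a ribosomal protein gene, over 383 of its 384 bases. Its value depends on how reads that match both were counted, which is not given. The TMM-scaled levels, used for members from here on, were 14.1, 13.5, 13.6 and 11.3 CPM in fibronectin_antiITGAV, 19.2, 27.9, 16.7 and 17.4 CPM in fibronectin_IgG, 35.3, 18.5, 19.5 and 23.9 CPM in uncoated_antiITGAV and 13.1, 12.0, 16.03 and 12.4 CPM in uncoated_IgG. The anti-ITGAV libraries all lay below the IgG libraries on fibronectin, and all above them on uncoated dishes. Its interaction log2 value was -1.49 (edgeR adjusted p = 0.646), and DESeq2 gave -1.47 with an adjusted p of 0.00515. Rpl41 itself averaged 485 ± 128, 588 ± 58.5, 595 ± 43.4 and 575 ± 39.7 CPM (SD, n = 4) in the 4 groups in the same order.

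The coating moved some members and some genes at large. Averaged over both antibodies, 28 of 233 members (12.0%) were called for fibronectin against uncoated dishes, beside 11.8% of all genes tested. Of these 19 were higher, beside a background of 6.58%, and 9 lower, beside 5.26%. Under anti-ITGAV 13 members were called, 8 higher and 5 lower, beside a background of 5.66%. Under IgG 5 members were called, 3 higher and 2 lower, beside 3.79%. The interaction of coating and antibody called no member and 0.0% of all genes, so 13 against 5 calls does not show that the antibodies differ. For the interaction 19 of 233 members had an unadjusted p under 0.05, beside 614 of 15469 genes, a difference that was not tested. Without fibronectin_antiITGAV 3 the counts were 33 averaged (14.2% of members, beside 15.7% of all genes), 8 under anti-ITGAV (3.43%, beside 6.17%) and 13 under IgG (5.58%, beside 8.4%). All 28 members were then still called in the averaged comparison, and under anti-ITGAV F630028O10Rik, G530011O06Rik, 2610035D17Rik, Snhg4 and Mir17hg were not. The median log2 fold change of the members was 0.02 averaged over antibodies, 0.07 under anti-ITGAV and -0.02 under IgG, beside 0.00, 0.01 and 0.00 over all genes.

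The fold changes under anti-ITGAV and under IgG rest on separate libraries, with 1 estimate of the spread over all 16. Called in both were Gm13710, Gm13091 and G530011O06Rik, which is 23.1% of the 13 called under anti-ITGAV and 60.0% of the 5 called under IgG. Of the 13, 12 had the same sign under IgG, and Gm10076 had the opposite one. Of the 5, 4 had the same sign under anti-ITGAV, and Gm15564 had the opposite one. Gm13710, Junos and Snhg4 are members only through the coating where they were higher, so their agreement is no separate support. The same shares over all genes called were not taken, so these counts are a description.

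**Figure D2:**
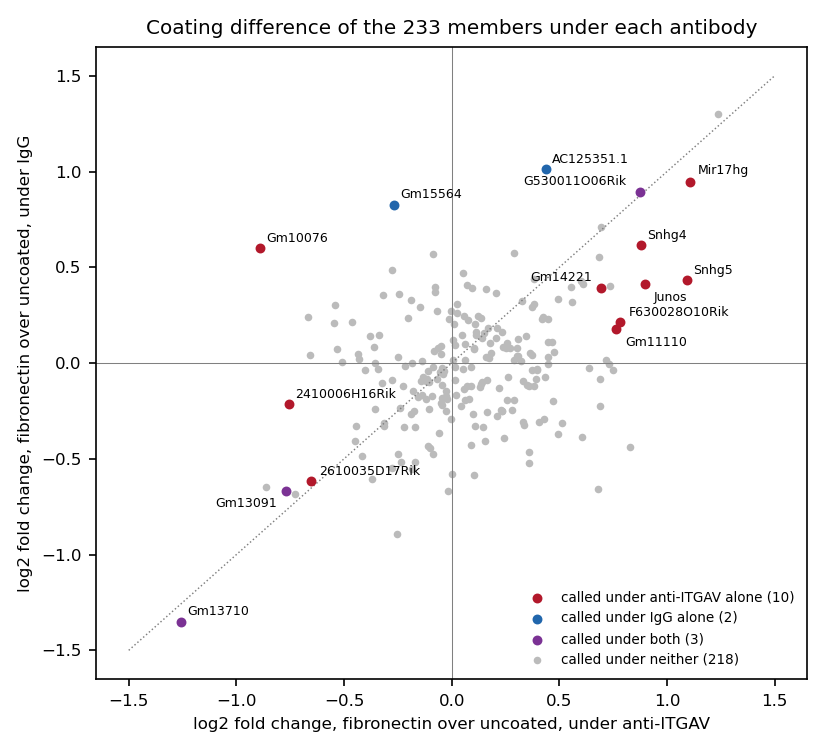
Log2 fold change of fibronectin over uncoated dishes for each of the 233 members, under anti-ITGAV (x axis) and under IgG (y axis), which share no library; the dotted line marks equal values. Gm13710 lies lowest on both axes at -1.26 and -1.35, and Gm14636, called under neither antibody alone, lies high on both at 1.24 and 1.30.

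The member with the smallest adjusted p, Gm13710, fell on fibronectin; its mean was 1.57 CPM on fibronectin and 3.92 CPM on uncoated dishes, so it is a member only through the uncoated libraries. Gm13710 (chromosome 2, 84500760 to 84531322, minus strand), a lincRNA row, overlapped no coding gene, and the nearest was Tfpi, the tissue factor pathway inhibitor gene, 23985 bases away on the same strand. It stood at 1.27, 1.56, 2.21 and 1.07 CPM in fibronectin_antiITGAV and at 3.84, 3.55, 4.43 and 2.88 CPM in uncoated_antiITGAV. Under IgG it stood at 1.18, 2.30, 1.72 and 1.28 CPM on fibronectin and at 4.45, 2.81, 5.40 and 3.95 CPM on uncoated dishes. All 8 fibronectin libraries lay below all 8 uncoated ones. The log2 fold change was -1.26 ± 0.27 (SE) under anti-ITGAV (edgeR adjusted p = 0.0101), -1.35 ± 0.27 under IgG (0.00767) and -1.30 ± 0.19 averaged (0.000211). Tfpi had a log2 fold change of 0.18 averaged over antibodies (edgeR adjusted p = 0.503).

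Gm13091 also fell and G530011O06Rik rose under both antibodies. Gm13091 (chromosome 4, 150566869 to 150568544, minus strand) lies inside Rere, a transcriptional corepressor gene on the other strand, with no exon in common. It stood at 2.33 to 3.61 CPM in the 8 fibronectin libraries (median 3.07), against 4.51 to 6.19 CPM in the uncoated ones (median 4.84), with no overlap. Its averaged log2 fold change was -0.72 ± 0.12 (SE, edgeR adjusted p = 0.000923), and that of Rere was -0.29 (0.0174). G530011O06Rik (chromosome X, 169975043 to 169978917, minus strand) shares 40.0% of its exonic length with Mid1, a ubiquitin ligase gene on the plus strand. It stood at 5.67, 5.57, 10.2 and 5.06 CPM in fibronectin_antiITGAV, 6.03, 4.65, 5.99 and 5.27 CPM in fibronectin_IgG, 3.25, 4.15, 3.82 and 3.26 CPM in uncoated_antiITGAV and 2.31, 2.55, 3.25 and 3.67 CPM in uncoated_IgG. All fibronectin libraries lay above all uncoated ones, with fibronectin_antiITGAV 3 highest. A stretch of 309 of its 2380 transcript bases is identical to a transcript of Gm21748, a coding gene elsewhere. The count of G530011O06Rik thus also depends on how shared reads were counted. Its averaged log2 fold change was 0.88 ± 0.15 (SE, edgeR adjusted p = 0.000889), and that of Mid1 0.35 (0.241). In all, 5 members (2.15%) separated the 8 fibronectin from the 8 uncoated libraries, beside 3.82% of all genes tested; the other two were Cct6a and Snhg17.

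**Figure D3:**
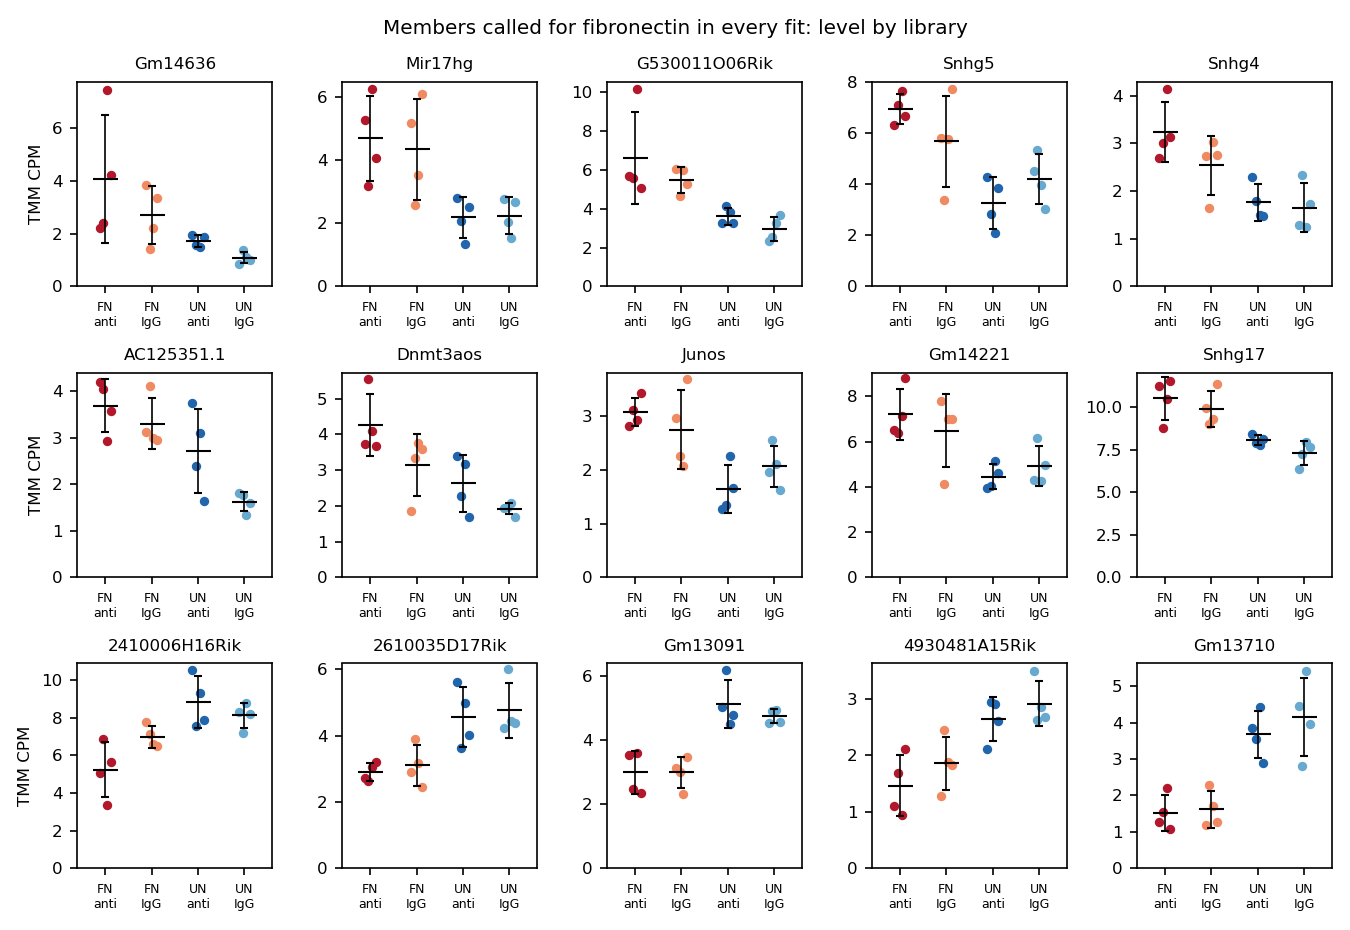
TMM-scaled CPM in each library (points) with the group mean and SD (bars, n = 4) for the 15 members called for fibronectin against uncoated dishes in the averaged comparison under all 26 other settings tried; FN is fibronectin, UN uncoated and anti anti-ITGAV. The first 10 were higher on fibronectin and the last 5 lower, from Gm14636 (log2 1.27) to Gm13710 (log2 -1.30).

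Of the microRNA hosts, 4 rose and 1 fell on fibronectin. A microRNA is cut from a hairpin in its host transcript and represses messenger RNAs that pair with its seed, bases 2 to 8 of the mature strand. By position on the same strand, 14 members held a microRNA gene, and averaged over antibodies Mir17hg, F630028O10Rik, Mir22hg and Snhg4 were called higher and Gm11613 lower on fibronectin. The background was 11.8% of all genes called, 6.58% higher and 5.26% lower. Snhg4, at a mean of 2.88 CPM on fibronectin and 1.71 CPM on uncoated dishes, is a member only through the fibronectin libraries. Mir17hg (chromosome 14, 115042879 to 115046727, plus strand), a lincRNA row, carries the cluster of Mir17, Mir18, Mir19a, Mir20a, Mir19b-1 and Mir92-1 and is known for repressing cell-cycle inhibitors and proapoptotic genes. The main mature strands, from RefSeq on GRCm38.p6, are shown since the called row is their host; capitals mark the seed.
mmu-miR-17-5p: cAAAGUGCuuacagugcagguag
mmu-miR-20a-5p: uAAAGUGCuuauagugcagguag
mmu-miR-18a-5p: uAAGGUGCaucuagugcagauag
mmu-miR-19a-3p: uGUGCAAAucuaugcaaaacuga
mmu-miR-19b-3p: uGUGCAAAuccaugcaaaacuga
mmu-miR-92a-3p: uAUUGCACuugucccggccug

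The first pair share the seed AAAGUGC and the pair of miR-19 strands share GUGCAAA, while miR-18a and miR-92a each have their own. Mir17hg stood at 5.26, 3.19, 6.24 and 4.06 CPM in fibronectin_antiITGAV, 5.19, 2.56, 3.52 and 6.10 CPM in fibronectin_IgG, 2.80, 2.07, 1.33 and 2.52 CPM in uncoated_antiITGAV and 2.76, 2.02, 1.52 and 2.66 CPM in uncoated_IgG. All anti-ITGAV libraries on fibronectin lay above those on uncoated dishes, and under IgG 1 fibronectin library lay among the uncoated ones. The averaged log2 fold change was 1.03 ± 0.21 (SE, edgeR adjusted p = 0.00342). The microRNAs themselves were not measured: their rows held 0 counts in all libraries, and the selection for poly(A) does not keep mature strands.

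The hosts of miR-223 and miR-22 were also higher on fibronectin. F630028O10Rik (chromosome X, 96239926 to 96243636, plus strand) holds Mir223, a microRNA abundant in myeloid cells and known for restraining granulocyte production and the inflammasome. Mir22hg (chromosome 11, 75461539 to 75466676, plus strand) holds Mir22 in an exon and overlaps the coding gene Tlcd2 on the same strand. Their main mature strands, again with the seed in capitals, share no seed with the cluster above.
mmu-miR-223-3p: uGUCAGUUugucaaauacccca
mmu-miR-22-3p: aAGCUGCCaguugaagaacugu

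F630028O10Rik stood at 90.5, 70.3, 154 and 80.5 CPM in fibronectin_antiITGAV, 83.6, 51.7, 65.3 and 87.1 CPM in fibronectin_IgG, 55.8, 55.5, 49.9 and 68.8 CPM in uncoated_antiITGAV and 70.6, 60.8, 62.8 and 53.6 CPM in uncoated_IgG. The libraries did not overlap under anti-ITGAV and did under IgG. The log2 fold change was 0.78 ± 0.21 (SE) under anti-ITGAV (edgeR adjusted p = 0.0366), 0.22 ± 0.21 under IgG (0.732) and 0.50 ± 0.15 averaged (0.0358). Its call in the averaged comparison did not hold in 14 of 26 other settings, among them the fits on FPKM. Mir22hg stood at 20.9 to 38.4 CPM on fibronectin (median 31.9), against 21.1 to 28.1 CPM on uncoated dishes (median 24.2), an averaged log2 fold change of 0.34 ± 0.10 (SE, edgeR adjusted p = 0.0392). Its call did not hold in 13 of 26.

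Gm11613 (chromosome 11, 97644184 to 97660367, minus strand), which holds a microRNA row named Gm24158, fell on fibronectin, to 1.49 to 3.43 CPM (median 2.04) against 2.05 to 4.86 CPM on uncoated dishes (median 3.501). Its averaged log2 fold change was -0.70 ± 0.19 (SE, edgeR adjusted p = 0.0225). Dleu2, the host of Mir15a and Mir16-1, Ftx, Mir142hg and Mir99ahg were not called in any comparison, with averaged log2 values of 0.12, 0.33, 0.17 and 0.15. The list of 16 microRNA host symbols had 6 members, with Mir17hg and Mir22hg the ones called.

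Of the snoRNA hosts, 6 rose and 1 fell on fibronectin. Small nucleolar RNAs guide the chemical modification of ribosomal RNA and are mostly released from introns of host genes, whose spliced remainder often has little coding capacity. By position 16 members held a snoRNA or scaRNA row. Averaged over antibodies, Snhg1, Snhg4, Snhg5, Snhg15, Snhg17 and Cct6a were called higher, 2410006H16Rik was called lower and 9 were not called, with a median log2 fold change of 0.23 beside 0.00 over all genes. The call of Snhg15 did not hold in 14 of 26 other settings, that of Snhg1 in 4 and that of Cct6a in 3. The other called hosts held in all 26. Of the 11 members on the list of named Snhg genes, Gas5 and Zfas1, 5 were called higher and 0 lower, Snhg4 with the limit given above. The background was again 6.58% of all genes higher and 5.26% lower. Under anti-ITGAV 2 of these 11 were called, Snhg4 and Snhg5, beside 5.66% of all genes, and under IgG 0, beside 3.79%.

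Snhg5 (chromosome 9, 88521050 to 88522929, minus strand), which holds Snord50a and Snord50b, stood at 6.31, 7.12, 7.67 and 6.69 CPM in fibronectin_antiITGAV and at 4.29, 2.83, 2.08 and 3.87 CPM in uncoated_antiITGAV. Under IgG it stood at 5.83, 3.37, 5.77 and 7.74 CPM on fibronectin and at 4.51, 5.34, 3.95 and 3.03 CPM on uncoated dishes. The groups were apart under anti-ITGAV and overlapped under IgG, with log2 fold changes of 1.09 ± 0.25 (SE, edgeR adjusted p = 0.0159) and 0.43 ± 0.25 (0.454). The interaction value was 0.66 (0.646), so the difference between antibodies did not pass. Snhg17 (chromosome 2, 158353700 to 158361580, minus strand) was at 8.76 to 11.6 CPM on fibronectin, against 6.38 to 8.46 CPM on uncoated dishes, with no overlap, an averaged log2 fold change of 0.41 ± 0.09 (SE, edgeR adjusted p = 0.00391). Snhg1 (chromosome 19, 8723475 to 8726443, plus strand), which starts 106 bases from the oppositely directed Slc3a2, the heavy chain gene of amino acid transporters, was at 5.99 to 9.39 CPM on fibronectin, against 4.53 to 6.99 CPM on uncoated dishes, a log2 fold change of 0.44 ± 0.12 (edgeR adjusted p = 0.0239). That of Slc3a2 was 0.24 (0.0742).

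2410006H16Rik (chromosome 11, 62602877 to 62604807, plus strand), which holds Snord49a, Snord49b and Snord65, went the other way. It stood at 5.04, 6.85, 3.36 and 5.65 CPM in fibronectin_antiITGAV, against 10.5, 7.54, 9.32 and 7.87 CPM in uncoated_antiITGAV. Under IgG the values were 7.75, 7.13, 6.58 and 6.49 CPM on fibronectin, against 8.28, 7.20, 8.79 and 8.19 CPM on uncoated dishes. The averaged log2 fold change was -0.49 ± 0.12 (SE, edgeR adjusted p = 0.0153). Gas5, which holds 10 annotated small RNA rows, was at 17.6 to 26.4 CPM on fibronectin (median 24.1), against 14.6 to 20.8 CPM on uncoated dishes (median 19.5), and did not pass (0.29, edgeR adjusted p = 0.0749). Zfas1 differed least of the 11, at -0.04.

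The start windows of 6 called hosts, with both RefSeq starts of Snhg17, are shown because this class of gene is known for transcripts that begin with a run of pyrimidines, a feature of messenger RNAs whose translation follows growth signals. Each window runs from 15 bases before to 24 bases after the start in RefSeq (GRCm38.p6), and capitals mark its longest run of C and T, the first where several are as long.
Snhg1 (chr19:8723472-8723511, plus strand): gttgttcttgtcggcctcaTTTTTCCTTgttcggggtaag
Snhg5 (chr9:88522873-88522912, minus strand): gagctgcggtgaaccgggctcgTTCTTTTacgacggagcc
Snhg15 (chr11:6528736-6528775, minus strand): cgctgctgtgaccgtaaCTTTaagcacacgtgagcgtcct
Snhg17 (chr2:158361498-158361537, minus strand): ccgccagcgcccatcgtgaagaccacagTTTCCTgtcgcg
Snhg17 (chr2:158361485-158361524, minus strand): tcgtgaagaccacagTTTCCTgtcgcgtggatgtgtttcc
Cct6a (chr5:129787341-129787380, plus strand): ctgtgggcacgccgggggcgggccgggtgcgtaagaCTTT
2410006H16Rik (chr11:62602862-62602901, plus strand): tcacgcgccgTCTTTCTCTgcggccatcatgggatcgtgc

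The runs were 9, 7, 4, 6, 6, 4 and 9 bases long. Of all 32851 promoter windows, 10.1% held a run of at least 9, 23.6% one of at least 7, 36.3% one of at least 6 and 78.0% one of at least 4. With the start base as position 0, the run began there at 1 start of Snhg17. In the other windows shown it began at positions -5 to 21. The run of 2410006H16Rik, from position -5, spanned the start base, so that transcript began inside its run. At the remaining starts shown the run lay after the start base, so the transcript did not begin with it. The host that fell had a run as long as the longest among those that rose, hosts not called had runs of 3 to 9, and the runs are a description of these letters only. Of the 16 hosts 14 had a window to read.

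Members that lie beside or inside a coding gene were called with or without their neighbour. Junos (chromosome 4, 95051534 to 95167318, plus strand) starts 688 bases from the start of Jun, the AP-1 transcription factor gene on the other strand, and shares 5.63% of its exonic length with it. Its mean was 2.91 CPM on fibronectin and 1.86 CPM on uncoated dishes, so it is a member only through the fibronectin libraries. It stood at 2.82, 3.11, 2.93 and 3.43 CPM in fibronectin_antiITGAV, against 1.28, 1.35, 2.25 and 1.67 CPM in uncoated_antiITGAV, with no overlap. Its log2 fold change was 0.90 ± 0.23 (SE, edgeR adjusted p = 0.0272) under anti-ITGAV and 0.41 ± 0.23 (0.420) under IgG. Jun had 0.12 (0.698) and 0.51 (0.108) in the same comparisons.

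Gm11110 (chromosome 17, 57091370 to 57105942, minus strand) starts 617 bases from the start of Tnfsf9, which encodes the ligand of a costimulatory receptor of T cells, and shares 8.95% of its exonic length with it. Both rose on fibronectin, with averaged log2 fold changes of 0.47 ± 0.13 (SE, edgeR adjusted p = 0.0221) for Gm11110 and 0.89 ± 0.16 (0.00125) for Tnfsf9. AC125351.1 (chromosome 12, 81717830 to 81720052, minus strand), 958 bases from the kinase gene Map3k9, rose under IgG. It stood at 3.13, 4.12, 3.00 and 2.96 CPM in fibronectin_IgG, against 1.81, 1.76, 1.34 and 1.61 CPM in uncoated_IgG, a log2 fold change of 1.01 ± 0.23 (SE, edgeR adjusted p = 0.0191). Map3k9 had 0.49 (0.149) there and 0.39 (0.0469) averaged. Dnmt3aos lies inside Dnmt3a, a DNA methyltransferase gene, on the other strand, and averaged 3.70 ± 1.01 CPM on fibronectin and 2.28 ± 0.652 CPM on uncoated dishes (SD, n = 8 each), a log2 fold change of 0.70 ± 0.17 (SE, edgeR adjusted p = 0.0118). Dnmt3a had 0.19 (0.0538).

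Gm15564 (chromosome 16, 35966752 to 35983230, minus strand) lies inside the importin gene Kpna1 on the other strand. It stood at 3.44, 3.28, 4.02 and 3.38 CPM in fibronectin_IgG, against 2.05, 2.44, 1.34 and 2.09 CPM in uncoated_IgG, a log2 fold change of 0.83 ± 0.19 (SE, edgeR adjusted p = 0.0227). Under anti-ITGAV it was -0.27 (0.429), and the interaction did not pass at -1.09 (0.646). Kpna1 had 0.11 (0.870) under IgG.

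Across the members whose nearest coding gene was itself tested, the share of pairs with the same sign is given here for those that overlap and those that do not, with no test of the difference. In the averaged comparison 64 of 99 overlapping pairs (64.6%) had the same sign, with a Pearson r of 0.52 and a Spearman rho of 0.56 across pairs. Among the 110 pairs that did not overlap, 64 (58.2%) had the same sign, with 0.17 and 0.23. The pairs come from the same libraries and share their depth and GC trend, so these values are a description. Of 12 called members in overlapping pairs 4 had a called neighbour, each with the same sign, and of 12 in the other pairs 2 did. Of all protein-coding genes tested, 14% were called, and the share of called neighbours among members not called was not taken. Calls were made in 15 of the 126 members that overlap no coding gene (10 higher, 5 lower) and in 13 of the 107 that do (9 higher, 4 lower). These are 11.9% and 12.15%, both near the 11.8% of all genes called.

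The remaining calls of the averaged comparison were spread over members of no described group. Gm14636 (chromosome X, 19156981 to 19167241, minus strand) had the largest log2 fold change, 1.27 ± 0.26 (SE, edgeR adjusted p = 0.00318). It stood at 2.21, 2.40, 7.46 and 4.23 CPM in fibronectin_antiITGAV, 3.84, 1.40, 2.22 and 3.35 CPM in fibronectin_IgG, 1.94, 1.57, 1.51 and 1.89 CPM in uncoated_antiITGAV and 0.861, 1.37, 1.13 and 1.01 CPM in uncoated_IgG. Its uncoated libraries were all under 2 CPM, so it reached the threshold through the fibronectin ones, and 1 of them lay among the uncoated values. Gm14221, Gm6634, Gm10602 and Gm26982 were also higher, with log2 fold changes of 0.54, 0.62, 0.47 and 0.43. Lower were 2610035D17Rik (-0.64), 4930481A15Rik (-0.75), 2900089D17Rik (-0.49), 4732487G21Rik (-0.57) and Tmem250-ps (-0.24). The calls of 2900089D17Rik, 4732487G21Rik and Tmem250-ps did not hold in 14, 18 and 15 of 26 other settings. Those of 2610035D17Rik and 4930481A15Rik held in all 26. RefSeq lists Tmem250-ps as protein-coding and 4732487G21Rik under the coding gene Gpatch2l. With Cct6a they are the 3 called members that are coding in RefSeq. 4930481A15Rik and 4732487G21Rik, at means of 1.66 and 1.84 CPM on fibronectin, are members only through the uncoated libraries.

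**Figure D4:**
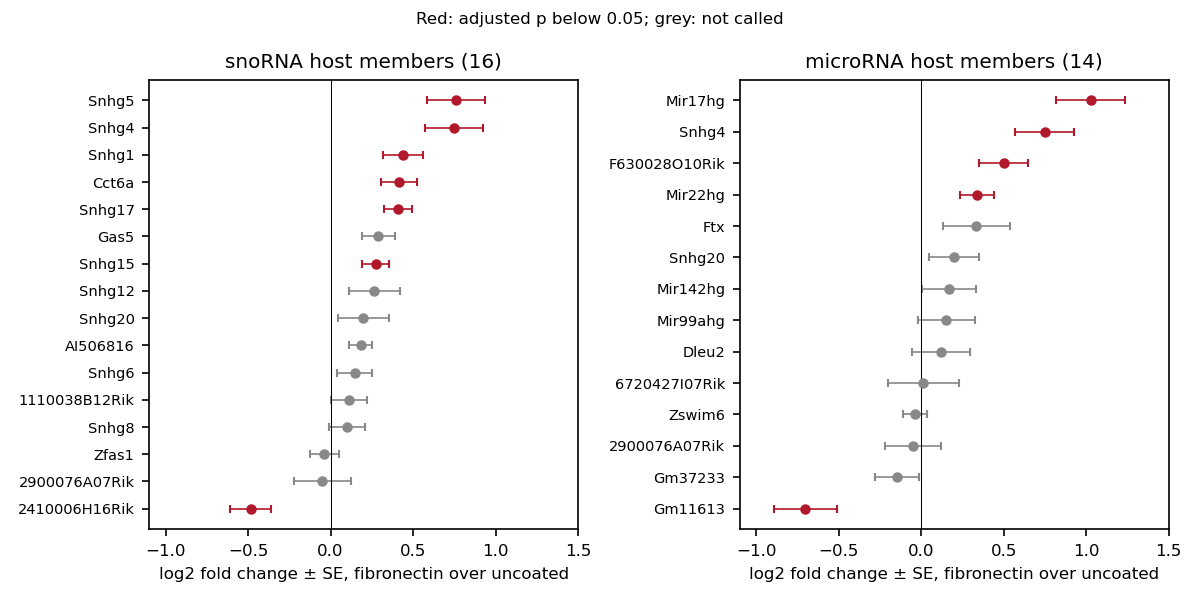
Log2 fold change (with SE) of fibronectin over uncoated dishes, averaged over antibodies, for the 16 snoRNA host members (left) and the 14 microRNA host members (right); red marks an edgeR adjusted p under 0.05. Mir17hg (1.03) and Snhg5 (0.76) lie highest and Gm11613 (-0.70) and 2410006H16Rik (-0.49) lowest.

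The RNAs on the list of nuclear, X inactivation and imprinted genes passed the test in no comparison. Of the 20 symbols on that list 7 were members under the name the table uses: Malat1, Neat1, Tug1, 1810026B05Rik (the gene of Chaserr, beside Chd2), Firre, Kcnq1ot1 and Pvt1. Kcnq1ot1, the imprinted antisense RNA within Kcnq1, came nearest, at 8.91 to 22.5 CPM on fibronectin (median 14.9), against 6.15 to 14.9 CPM on uncoated dishes (median 9.98), an averaged log2 fold change of 0.51 ± 0.19 (SE, edgeR adjusted p = 0.0892). Malat1 had 0.22 ± 0.16 (0.443) and Neat1 0.14 ± 0.13 (0.557). Pvt1, which lies beside the transcription factor gene Myc, had 0.21 (0.384), while Myc stood at 24.8 ± 4.49 (SD, n = 4) and 21.6 ± 3.65 CPM on fibronectin with anti-ITGAV and IgG, against 8.83 ± 1.63 and 7.81 ± 2.33 CPM on uncoated dishes, an averaged log2 fold change of 1.48 ± 0.14 (SE, edgeR adjusted p = 3.49e-06). Xist, the RNA that silences an X chromosome in female cells, was no member, with a highest count of 10 in any library, while the Y-linked Ddx3y was at 42.0 to 124 CPM in every library. Of the 13 immune and macrophage symbols 3 were members. Dnmt3aos is given above; Gm14005 (the gene of Morrbid, beside the proapoptotic Bcl2l11) and AW112010 were not called in any comparison, with averaged log2 values of 0.26 and -0.35. Gm26917, from the list of rows that overlap ribosomal RNA or small RNAs, varied most among the 10 most abundant, 3.68-fold between its highest and lowest library, and was not called (-0.12, edgeR adjusted p = 0.791).

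Some abundant members differed between libraries of the same group along a GC trend. For each library, every gene's log2 CPM minus its own 16-library mean was set against its transcript GC content. Spearman's rho, taken over genes that are not independent replicates, was below 0 in 8 libraries, between -0.716 and -0.144, and above 0 in the other 8, up to 0.556. The 8 negative ones were 2 of fibronectin_antiITGAV, 2 of fibronectin_IgG, 1 of uncoated_antiITGAV and 3 of uncoated_IgG. 1700020I14Rik was at 138 to 167 CPM in the 8 negative libraries, against 72.1 to 109 CPM in the 8 positive ones, and Tug1, which is known from chromatin and germ cell biology, was at 87.1 to 101 CPM, against 48.5 to 71.9 CPM. In all, 11 members (4.72%) had levels that did not overlap between these sets, all higher in the negative libraries, beside 7.09% of all genes tested. The median GC content was 48.0% in members and 50.1% in coding genes. With the trend taken out by a smooth offset, 38 members were called for fibronectin in the averaged comparison, 27 of them among the 28; the one lost was Tmem250-ps. That is 16.3% of members, beside 23.0% of all genes under the same offset, a difference that was not tested. Under anti-ITGAV the count was then 20, with 11 of the 13 among them and Mir17hg and F630028O10Rik not (8.58% of members, beside 13.1% of all genes), and under IgG it was 21 (9.01%, beside 11.8%).

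**Figure D5:**
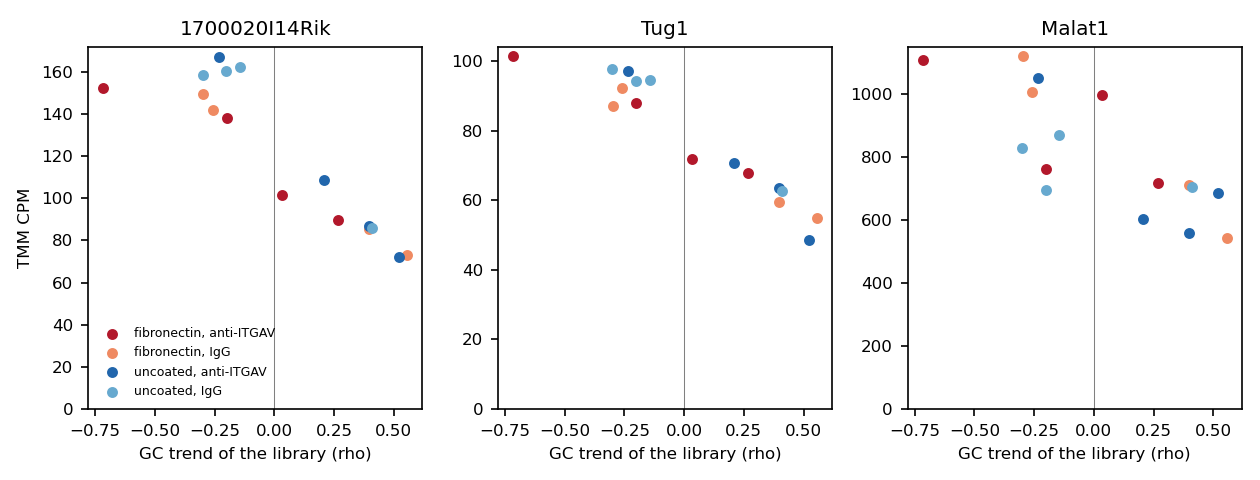
TMM-scaled CPM of 1700020I14Rik, Tug1 and Malat1 in each library (points, coloured by group) against the library's GC trend, Spearman's rho across genes between GC content and the deviation of log2 CPM. 1700020I14Rik and Tug1 separate at rho 0 with all 4 groups mixed, and Malat1 falls along the same axis with overlap.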

How the data were processed

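The authors deposited raw counts per gene (whole numbers) and FPKM, which equal the count over gene length and over a constant per library of 0.989 to 1.03 times its total. The submitters' processing notes name featureCounts, HISAT2 and StringTie, with GRCm38.p6 and mm10 as builds; no source used here gives their versions, strand or multi-mapping settings. Column sums were 27995035 to 43413650. The counts were fitted with edgeR 4.0.16 (TMM, filterByExpr with minimum count 10, robust quasi-likelihood test, 1 mean per group, 16 libraries, 15469 genes, Benjamini-Hochberg), with limma 3.58.1 and DESeq2 1.42.0 in R 4.3.3 as alternatives, and tested on simulated data. CPM in the text are TMM-scaled except in the membership rule, the coating means set against it and the marker lists. Overlaps used the deposited positions and GENCODE M21 exons, with blastn 2.17.0 for near-identical copies (95% identity over 100 bases). Such a copy in a coding gene elsewhere was found for 59 of the members. Named were all called members, the 10 most abundant, up to 6 of each list, 3 on each side of the threshold, and their coding neighbours. The members and lists were chosen with earlier results of these data known. The labels give the replicate number no meaning, and whether it pairs the samples was not settled. No replicate pair agreed within sampling noise (chi-square per degree of freedom 5.39 to 204).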

Additional observations from a re-analysis of the deposited data

Results flagged for a closer look

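For the members named above, each group of 4 libraries was searched for a library far from the other 3 (Dixon's test at 95%), and 13 of 224 groups were found, 5.8%, where chance gives about 1 in 20. The library fibronectin_antiITGAV 3 accounted for 3 of them: G530011O06Rik stood at 10.17 CPM there, against 5.06 to 5.67 in the other 3 libraries, Cct6a at 285 CPM against 153.5 to 166.9, and Ifi30 at 148.1 CPM against 178 to 184. Elsewhere on fibronectin, AC125351.1 was high in fibronectin_IgG 2, at 4.115 CPM against 2.96 to 3.13, Gm11613 low in fibronectin_antiITGAV 4, at 1.491 CPM against 2.10 to 2.21, and Gas5 low in fibronectin_antiITGAV 2, at 18.23 CPM against 25.6 to 26.4.

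On uncoated dishes, 1700020I14Rik (85.67 CPM, against 158 to 162) and Tug1 (62.54 CPM, against 94.3 to 97.7) were low in uncoated_IgG 4, whose GC trend was 0.41 where the other 3 libraries of that group were below 0. 1700096K18Rik was high in the same library, at 2.272 CPM against 1.84 to 1.91. 2610035D17Rik was high in uncoated_IgG 2 (5.994 CPM, against 4.21 to 4.45), 2900089D17Rik in uncoated_IgG 1 (6.47 CPM, against 4.995 to 5.12), Gas5 in uncoated_IgG 3 (20.79 CPM, against 19.3 to 19.5) and Bach2os in uncoated_antiITGAV 1 (2.234 CPM, against 1.23 to 1.35).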

How the results depend on the processing

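No call reversed under any alternative. The averaged fibronectin comparison kept 15 of its 28 called members in all 26 alternatives, and each single-antibody comparison kept only Gm13710 in all 27. The alternatives counted here kept the membership fixed. Among the 15 are Gm13710, Gm14636, Junos, Snhg4 and 4930481A15Rik, which reached the threshold of 2 CPM only through the coating where they were higher. Their call in every setting is therefore no separate support. The antibody comparison on uncoated dishes called 1 member with DESeq2 (0.429%, beside 0.23% of all genes). With voom and sample quality weights it also called 1 (0.429%, beside 0.705%). The interaction called 1 with DESeq2 (0.429%, beside 0.00647%). Under anti-ITGAV (13 called) the count was 28 with DESeq2, 28 with voom, 20 with the GC offset, 2 with the groups alone, 6 with limma on unfiltered FPKM, 5 at 5 CPM and 8 without overlap. Under IgG (5 called) it was 12 with DESeq2, 34 with voom, 21 with the GC offset, 8 with the compared groups alone, 3 without a low-count filter, 0 among members of at least 5 CPM and 2 among members overlapping no coding gene. Averaged (28 called) it was 56 with voom, 10 at 5 CPM and 15 without overlap. The sign of the median antibody effect on fibronectin turned with voom, as given above. The GC offset was chosen after the trend was seen.

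Leaving out 1 library in turn gave 5 to 19 calls under anti-ITGAV, 1 to 13 under IgG and 19 to 33 averaged. These were 2.15% to 8.15%, 0.429% to 5.58% and 8.15% to 14.2% of members. In the same fits 2.69% to 6.5%, 1.59% to 8.4% and 8.31% to 15.7% of all genes were called. Under anti-ITGAV the count was 7, 6, 5 and 7 without uncoated_antiITGAV 1 to 4, and 8 without fibronectin_antiITGAV 1, 3 or 4. Under IgG it was 2, 2 and 1 without uncoated_IgG 1, 2 and 3, 3, 2 and 2 without fibronectin_IgG 1, 3 and 4, and 13 without fibronectin_antiITGAV 3. The correlation of same-numbered libraries ran from -0.301 to 0.277 over 24 pairs. It also carries the GC trend of the libraries and was not set against that of differently numbered pairs. It therefore cannot decide whether the numbers pair the samples. The replicate block gave 8 calls under anti-ITGAV (3.43%, beside 3.88% of all genes), 4 under IgG (1.72%, beside 2.33%) and 24 averaged (10.3%, beside 9.82%). The cause of these shifts was not tested. The median SE of the averaged log2 fold change was 0.151 in members and 0.131 over all genes. At 10 to 100 CPM the median within-group SD of log2 CPM was 0.237 in 36 members and 0.188 in 6253 coding genes.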
